A study of Mus musculus with 9 samples.

Results

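The plasminogen activation system was examined through 7 genes: the plasminogen activators Plau and Plat, the urokinase receptor Plaur, the inhibitors Serpine2 and Serpinb2, the clotting initiator F3 and the anticoagulant receptor Thbd. They were taken by symbol from a table of 57010 mouse genes, and all 7 were present and passed the filter on low counts that left 14747 genes for testing. RNA sequencing had been done on primary cultured renal cells, a mixed culture grown from digested kidneys of Wild-type mice and replated before treatment. All groups were taken at 6 h: 3 libraries with PBS as the control, 3 with 20 ng/mL TNF, and 3 with 20 ng/mL TNF together with 1 µM ACHP, which the submitters name as an inhibitor specific to NF-κB. The series was designed to study how an adhesion molecule is induced by TNF and how far that depends on NF-κB. No group received ACHP without TNF, and the labels do not say whether the other groups received the ACHP vehicle. An effect of ACHP therefore cannot be told apart from an effect of its vehicle. How many mice gave the 3 libraries of a group is not given in the sources used here. The p-values therefore measure the spread between these libraries, which may be technical.

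Plasminogen is a circulating zymogen that is cut to the protease plasmin by urokinase, the product of Plau, or by tissue plasminogen activator, the product of Plat. Urokinase works at the cell surface through its receptor Plaur, and serpins such as protease nexin-1 (Serpine2) and PAI-2 (Serpinb2) trap the activators. Plasmin dissolves fibrin and also opens extracellular matrix, which gives the system a place both in clot removal and in tissue remodelling, including that of the injured kidney. Tissue factor, encoded by F3, starts clotting on the cell surface, and thrombomodulin, encoded by Thbd, turns thrombin towards activation of the anticoagulant protein C.

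Sequences are shown for the 3 genes with a RefSeq promoter entry that were lower with ACHP plus TNF than with TNF, because that comparison adds an NF-κB inhibitor. They are the 250 bases before the RefSeq start site on GRCm38.p6, written 5′ to 3′ on the gene's own strand, for Serpinb2 at chr1:107511173-107511422 (plus), Serpine2 at chr1:79858666-79858915 (minus) and F3 at chr3:121723287-121723536 (plus). Capitals mark GGGNNNNNCC, a loose NF-κB type pattern, and TGANTCA, an AP-1 type pattern, searched on both strands.
Serpinb2: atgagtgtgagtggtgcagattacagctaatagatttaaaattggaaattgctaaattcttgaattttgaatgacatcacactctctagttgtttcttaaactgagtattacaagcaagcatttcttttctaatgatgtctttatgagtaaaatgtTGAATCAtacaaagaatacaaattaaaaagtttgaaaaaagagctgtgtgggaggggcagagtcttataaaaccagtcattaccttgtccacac
Serpine2: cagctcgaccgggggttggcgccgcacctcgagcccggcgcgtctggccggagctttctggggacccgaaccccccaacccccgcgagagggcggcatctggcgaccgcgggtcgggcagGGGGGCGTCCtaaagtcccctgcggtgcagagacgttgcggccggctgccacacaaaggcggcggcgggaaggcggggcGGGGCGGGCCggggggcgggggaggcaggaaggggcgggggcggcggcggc
F3: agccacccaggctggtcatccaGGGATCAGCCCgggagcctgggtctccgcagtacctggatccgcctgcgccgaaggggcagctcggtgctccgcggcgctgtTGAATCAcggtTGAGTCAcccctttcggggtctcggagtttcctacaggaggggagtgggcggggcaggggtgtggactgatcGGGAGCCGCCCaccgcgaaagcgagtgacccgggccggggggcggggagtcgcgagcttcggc
The Serpinb2 window held TGAATCA, starting 94 bases before the start site, and a TATAAA box 29 bases before it, and had no match to the NF-κB type pattern. In Serpine2 the NF-κB type pattern began 130 and 51 bases before the RefSeq start site, with no AP-1 type match. The annotated Serpine2 gene on GRCm38 spans 79794197 to 79861180. Its printed window therefore lies inside the gene, downstream of the outermost annotated start. In F3 it began near 228 and near 63 bases before the start site, each time as a pair of matches shifted by a base on opposite strands, and TGAATCA and TGAGTCA began at 146 and 135. A second RefSeq entry for Serpinb2 lies in the same region, with TGAATCA 181 bases before its start. Plaur, the remaining gene with an entry, had the NF-κB type pattern 46 bases and TGACTCA 69 bases before its start at the end of chr7:24462233-24462482. Among 32851 RefSeq promoters of the same length, 45.8% held GGGNNNNNCC, 6.75% held TGANTCA and 12.4% held TATAAA. Plau, Plat and Thbd had no entry in the table used. A match is only a stretch of letters, and binding was not measured.

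Total counts ran from 14194295 to 20892176 per library, which left Serpinb2 as the only gene of the 7 with fewer than 100 counts in most libraries. Levels are given as CPM, counts scaled to a common library size with TMM factors that correct for composition, with mean ± SD over 3 libraries. Kidney tubule markers were present in part. The 9 proximal tubule markers, 4 of them tested, summed to 44.5 to 48.3 CPM with PBS, 30.4 to 34.8 CPM with TNF and 32.9 to 36.2 CPM with ACHP plus TNF, and the 12 distal nephron and collecting duct markers, 9 of them tested, summed to 103 to 106, 79.0 to 87.3 and 84.2 to 90.0 CPM. Within these lists, Slc22a6 of the proximal tubule and Aqp2 of the collecting duct had 0 counts in all 9 libraries, so each lay under the 3 counts per library, or 0.144 to 0.211 CPM, that a count of 0 allows. Endothelial markers were present at a summed 33.6 to 43.5 CPM, with 9 of 10 genes tested, and Cdh5 lay between 6.98 and 9.12 CPM. Transcripts of neurons, which the culture's label does not name, differed between libraries: the 12 neuron markers, all tested, summed to 20.3, 77.4 and 63.1 CPM in PBS replicates 1 to 3, to 35.3, 53.8 and 45.3 CPM with TNF, and to 18.4 to 19.4 CPM with ACHP plus TNF. The 7 astrocyte markers, 6 of them tested, summed to 34.8, 88.1 and 87.8 CPM in PBS replicates 1 to 3, to 53.5 to 77.8 CPM with TNF and to 33.6 to 37.2 CPM with ACHP plus TNF, and the 7 oligodendrocyte markers, 5 of them tested, to 124, 193 and 195, to 142 to 152 and to 110 to 115 CPM. Map2 held most of the neuron sum in PBS replicate 1, at 16.303 CPM, and with ACHP plus TNF, at 13.785 to 14.958 CPM. Aldh1l1 held most of the astrocyte sum there, at 27.03 and at 26.426 to 29.321 CPM. Snap25 stood at 0.071, 12.094 and 8.064 CPM in PBS replicates 1 to 3. With TNF it stood at 3.679 to 7.995 CPM, and with ACHP plus TNF at 0.048 to 0.123 CPM. The neuron sum understates this difference. Tubb3 differed less, at 1.103 to 1.849 CPM in all 9 libraries. Mbp held most of the oligodendrocyte sum with ACHP plus TNF, at 76.9 to 82.4 CPM. Mobp stood at 0, 8.19 and 11.9 CPM in PBS replicates 1 to 3. With TNF, Mobp stood at 2.9 to 8.0 CPM, and with ACHP plus TNF at 0 to 0.368 CPM. The 17 macrophage markers, 13 of them tested, summed to 47.9 to 54.7 CPM with PBS, 51.8 to 54.2 CPM with TNF and 26.3 to 29.4 CPM with ACHP plus TNF. The 8 fibroblast markers, 7 of them tested, summed to 257 to 273 CPM with PBS, 204 to 220 CPM with TNF and 192 to 198 CPM with ACHP plus TNF. In such bulk RNA, fewer cells of a type and less RNA per cell cannot be told apart. The part of these transcripts in the differences below was not tested. Fits with neuron transcripts as a term were made, and where a call printed below was lost in them, this is said.

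Per kilobase of exon, the 7 genes spanned from among the most abundant transcripts of the culture to transcripts of low abundance. Plau stood at 1039 ± 22.2 CPM per kb with PBS, rank 17 of 14747 genes, and F3 at 419 ± 1.30, rank 44. Plaur followed at 27.3 ± 2.30, Thbd at 20.1 ± 1.01 and Plat at 14.5 ± 1.18 CPM per kb, with ranks 1730, 2470 and 3355. Serpine2 at 1.98 ± 0.18 and Serpinb2 at 0.82 ± 0.23 CPM per kb were the lowest, with ranks 9953 and 11845. Over all 9 libraries the ranges of Plau (1014 to 1155), F3 (377.5 to 449.8) and Plaur (25.7 to 32.0) did not meet, while those of Thbd (18.1 to 25.1) and Plat (13.4 to 19.3) did. With TNF, Thbd at 18.6 ± 0.48 and Plat at 18.8 ± 0.30 CPM per kb did not differ beyond their spread. Serpine2 (2.48 ± 0.10) and Serpinb2 (2.13 ± 0.43) met at their edges. Ranks and comparisons between genes rest on the length of all annotated exons merged. It was 3723 bases for Thbd, 6241 for Plat, 8287 for Serpine2 and 2349 for Serpinb2. Without length, their means with TNF were 69.3, 118, 20.6 and 5.01 CPM. Which transcripts were expressed was not tested. RNA for the substrate was not detected: Plg, which encodes plasminogen, had 0 counts in all 9 libraries, under the same limit of 3 counts per library.

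**Figure D1:**
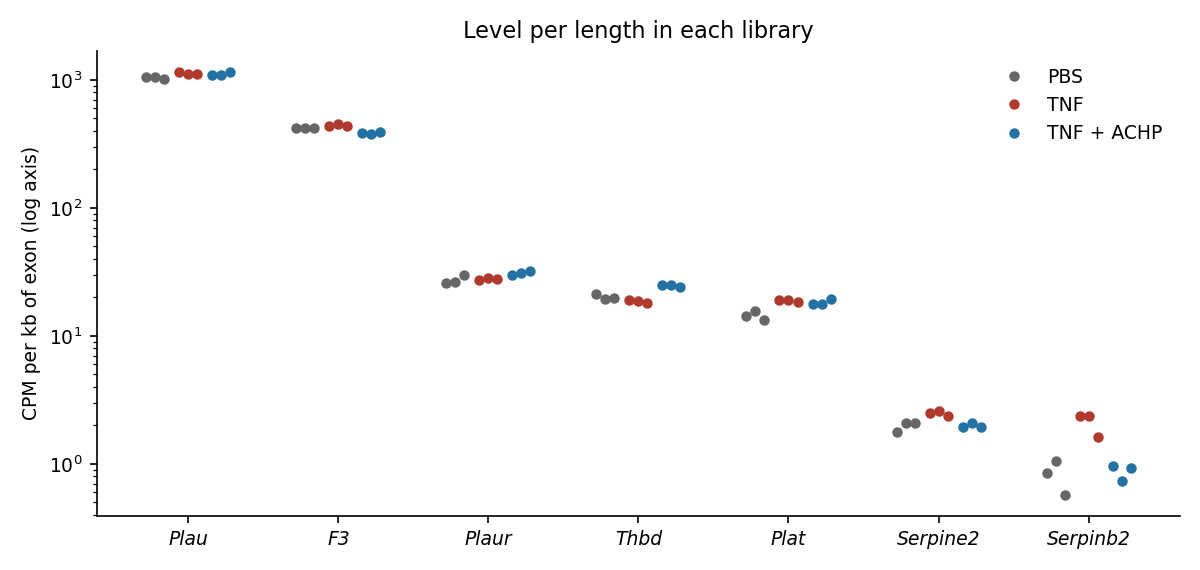
Level of each gene in CPM per kb of exon on a log axis, with 1 point per library, for PBS, TNF and TNF plus ACHP (replicates 1 to 3 from left within each group). Plau and F3 lie at or above 377.5 CPM per kb in all 9 libraries, and Serpine2 and Serpinb2 lie at or below 2.58 in all of them.

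The question of the first comparison was what TNF changed. Plat, Serpine2, Serpinb2 and Plau were higher with TNF than with PBS, by 8.27% for Plau and 2.61-fold for Serpinb2, and the other 3 genes were not called at an adjusted p under 0.05. These 4 of 7 stand beside 917 of 14747 genes called in all, or 6.22%, and the median log2 fold change was 0.11 over the 7 genes and -0.00 over all genes tested. The second comparison asked what differed when the NF-κB inhibitor was given together with TNF. There, Serpine2, Serpinb2 and F3 were lower and Thbd was higher with ACHP, again 4 of 7, beside 7.17% of all genes, with a median of -0.04 over the 7 and 0.00 over all. Against PBS, ACHP plus TNF gave higher Plat, Thbd and Plaur and lower F3, 4 of 7 beside 6.04% of all genes, with medians of 0.10 and 0.01. The libraries of both groups did not overlap for 6, 5 and 5 of the 7 genes in these comparisons, against 23.8%, 25.7% and 20.6% of all genes tested. As the 7 genes were chosen with earlier results of these data known, these shares cannot test whether the system responds as a set. Each pair of comparisons shares a group of libraries, so their values are given side by side and are not independent.

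**Figure D2:**
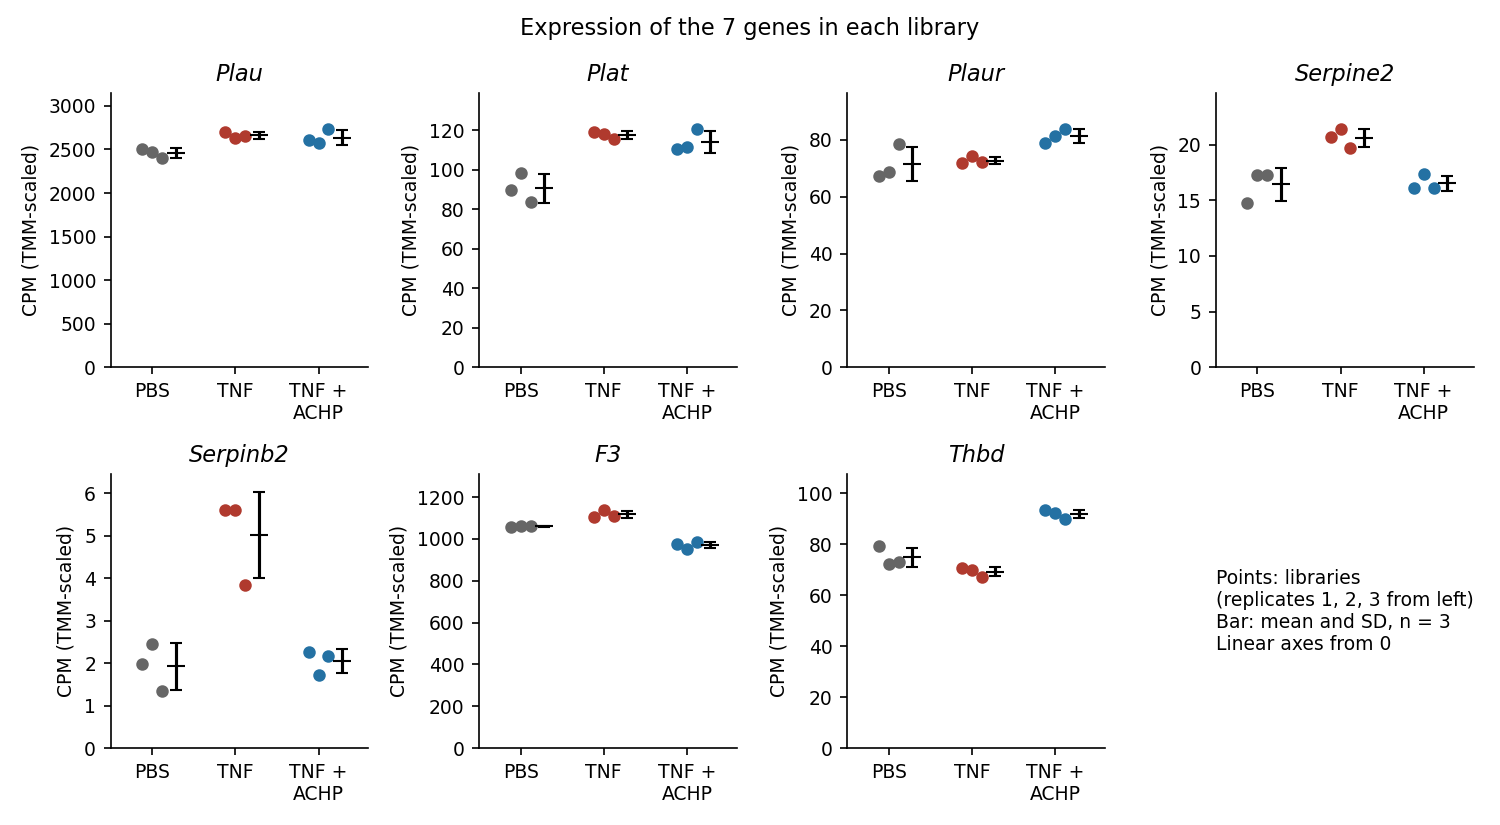
TMM-scaled CPM of the 7 genes in each library (points, replicates 1 to 3 from left) with the mean and SD of 3 libraries (bars), on linear axes that start at 0. Serpinb2 stands at 3.84 CPM or more in each TNF library and at 2.45 or less in the other 6 libraries, and Thbd stands at 90.1 CPM or more in each ACHP library and at 79.2 or less elsewhere.

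Of the activators, Plau (ENSMUSG00000021822, GRCm39 chromosome 14, 20886728 to 20893453, plus strand, 11 merged exons), which encodes urokinase, stood at 2503, 2473 and 2401 CPM in PBS replicates 1, 2 and 3. With TNF it stood at 2705, 2630 and 2652 CPM, and with ACHP plus TNF at 2607, 2569 and 2733 CPM. All 6 libraries that received TNF were above all 3 PBS libraries, and the TNF and ACHP libraries overlapped. TNF against PBS gave a log2 fold change of 0.11 (SE 0.031, edgeR adjusted p = 0.0299), with -0.01 (SE 0.031, adjusted p = 0.849) for ACHP plus TNF against TNF, and 0.10 (SE 0.031, adjusted p = 0.0595) for ACHP plus TNF against PBS. Leaving out a library ended the TNF call for PBS replicate 2 (adjusted p = 0.0556) or 3 (0.0688) and for TNF replicate 1 (0.155), 2 (0.0694) or 3 (0.0842), as did PBS replicate 1 as the only PBS library (0.352), a fit chosen after seeing the data in which the spread of PBS is assumed equal to that of the other groups. The third comparison passed with DESeq2 (adjusted p = 0.0292), with no filter (0.0491) and without TNF plus ACHP replicate 2 (0.0454).

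Plat (ENSMUSG00000031538, GRCm39 chromosome 8, 23247743 to 23272860, plus strand, 13 merged exons), which encodes tissue plasminogen activator, stood at 89.8, 98.4 and 83.8 CPM with PBS. It reached 119, 118 and 115 CPM with TNF and 110, 112 and 121 CPM with ACHP plus TNF. The PBS libraries were the lowest 3 of the 9, and the other groups overlapped. Plat rose by 29.8% with TNF (log2 fold change 0.38, SE 0.052, edgeR adjusted p = 1.1e-04). ACHP plus TNF left it 25.9% above PBS (0.33, SE 0.052, adjusted p = 6.1e-04), and its difference from TNF was -0.04 (SE 0.051, adjusted p = 0.697). Both calls against PBS held in every alternative run, between 0.32 and 0.44 for TNF and between 0.28 and 0.40 for ACHP plus TNF.

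Plaur (ENSMUSG00000046223, GRCm39 chromosome 7, 24161909 to 24175393, plus strand, 6 merged exons) encodes the surface receptor that holds urokinase. Its levels were 67.3, 68.8 and 78.4 CPM with PBS, 71.7, 74.2 and 72.2 CPM with TNF, and 78.8, 81.2 and 83.8 CPM with ACHP plus TNF. The TNF libraries lay inside the PBS range, and the ACHP libraries were above all 6 others, by a narrow margin over PBS replicate 3. TNF against PBS gave a log2 fold change of 0.02 (SE 0.054, edgeR adjusted p = 0.893). ACHP plus TNF gave 0.18 against PBS (SE 0.053, adjusted p = 0.0466) and 0.16 against TNF (SE 0.053, adjusted p = 0.0745). The call against PBS ended in 15 of 19 alternatives, with DESeq2 (adjusted p = 0.0739), with RLE factors (0.0523), with total counts alone (0.0717), with the stricter filter (0.0521), in the 6 libraries alone (0.118), with the neuron covariate (0.151), with the term for the 5 libraries with most neuron transcripts (0.0905) and on leaving out any library other than PBS replicate 3 (0.0562 to 0.212), and the value stayed between 0.14 and 0.27. The difference from TNF passed with no filter (adjusted p = 0.0337), in a fit to the 6 libraries alone (0.0208) and without PBS replicate 3 (0.0205).

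Of the inhibitors, Serpine2 (ENSMUSG00000026249, GRCm39 chromosome 1, 79771914 to 79838897, minus strand, 10 merged exons) encodes protease nexin-1, which inhibits thrombin, urokinase and plasmin. Its levels were 14.8, 17.3 and 17.3 CPM with PBS, 20.6, 21.4 and 19.7 CPM with TNF, and 16.1, 17.3 and 16.1 CPM with ACHP plus TNF. All 3 TNF libraries were above all 6 others, and the PBS and ACHP libraries overlapped. Serpine2 rose by 24.6% with TNF (log2 fold change 0.32, SE 0.079, edgeR adjusted p = 0.0194) and from TNF to ACHP plus TNF it fell by 19.5% (-0.31, SE 0.079, adjusted p = 0.0184). Against PBS the ACHP group gave 0.00 (SE 0.081, adjusted p = 0.989). DESeq2 gave adjusted p = 0.0516 and 0.0573 for the first 2 values.
The TNF call also ended without PBS replicate 1 (0.25, adjusted p = 0.082), TNF replicate 1 (0.0821) or TNF replicate 2 (0.104), and the ACHP call without TNF replicate 1 (0.069) or 2 (0.0914) or without TNF plus ACHP replicate 1 (0.0528) or 3 (0.0735). With a term for the 5 libraries with most neuron transcripts, which are PBS replicates 2 and 3 and all 3 TNF libraries, the values were 0.25 (adjusted p = 0.0779) and -0.09 (adjusted p = 0.866), and with log2 neuron CPM as a covariate the ACHP value was -0.17 (adjusted p = 0.507).

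Serpinb2 (ENSMUSG00000062345, GRCm39 chromosome 1, 107439153 to 107463208, plus strand, 12 merged exons), whose promoter is printed above, encodes PAI-2, a mostly intracellular inhibitor of urokinase. Read counts with PBS were 28, 44 and 25, those with TNF 102, 84 and 60, and those with ACHP plus TNF 37, 36 and 34. As CPM these were 1.98, 2.45 and 1.35, then 5.60, 5.60 and 3.84, then 2.27, 1.72 and 2.17. Every TNF library was above the other 6, and PBS and ACHP libraries overlapped. It had the largest fold change of the 7 genes with TNF, at a log2 fold change of 1.38 (SE 0.236, edgeR adjusted p = 9.2e-04), and that call held in every alternative run, from 1.17 to 1.61. From TNF to ACHP plus TNF it fell by 59.4% (-1.30, SE 0.233, adjusted p = 0.00139), and its difference from PBS was 0.08 (SE 0.260, adjusted p = 0.915).
The ACHP value was -1.28 (adjusted p = 0.0571) with neuron CPM as a covariate and -1.36 (adjusted p = 0.22) with the term for the 5 libraries. Macrophages, which are known to make PAI-2, had lower summed markers in all 3 ACHP libraries, as given above, while the TNF and PBS ranges overlapped. Apart from Cd14, Cd68, Ptprc, Fcer1g and Fcgr1, every macrophage marker was lower in each ACHP library than in each TNF library. Ctss stood at 3.18 to 5.57 CPM with PBS, 3.91 to 4.93 with TNF and 0.477 to 0.829 with ACHP plus TNF. Lyz2 stood at 6.00 to 6.93, 8.07 to 10.2 and 0.552 to 1.40 CPM. C1qb stood at 1.84 to 1.95, 1.53 to 1.79 and 0.127 to 0.238 CPM. Cd14 stood at 7.62 to 7.91, 9.28 to 9.93 and 8.95 to 10.3 CPM. With ACHP plus TNF, Cd14, Csf1r (7.71 to 8.83 CPM) and Cd68 (3.625 to 4.966 CPM) held most of the sum. The part of the macrophage difference in the ACHP value of Serpinb2 was not tested. A share of 11.7% of Serpinb2 exon bases lies in Serpinb10, where overlapping reads are not counted, and Serpinb10 itself had 1 count in all 9 libraries.

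F3 (ENSMUSG00000028128, GRCm39 chromosome 3, 121517186 to 121528697, plus strand, 7 merged exons), which encodes tissue factor, stood at 1056, 1060 and 1062 CPM with PBS. It was at 1104, 1137 and 1110 CPM with TNF and at 973, 954 and 983 CPM with ACHP plus TNF. The groups did not overlap in any pair, and the 3 PBS libraries, with an SD of 3.30 CPM, lay between the others. The difference of TNF from PBS was 0.08 (SE 0.030) and was not called (edgeR adjusted p = 0.152). From TNF to ACHP plus TNF, F3 fell by 13.1% (log2 fold change -0.20, SE 0.030, adjusted p = 1.9e-04) and from PBS it fell by 8.42% (-0.13, SE 0.030, adjusted p = 0.0125). With the term for the 5 libraries these were -0.20 (adjusted p = 0.131) and -0.12 (adjusted p = 0.27). The value against PBS was -0.11 (adjusted p = 0.35) with the neuron covariate, and the call also ended without TNF plus ACHP replicate 2 (adjusted p = 0.0538) and with PBS replicate 1 as the only PBS library (0.179).

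Thbd (ENSMUSG00000074743, GRCm39 chromosome 2, 148246386 to 148250108, minus strand, 1 exon) encodes thrombomodulin, best known from endothelium. It stood at 79.2, 72.2 and 73.2 CPM with PBS, at 70.6, 70.0 and 67.3 CPM with TNF, and at 93.4, 92.2 and 90.1 CPM with ACHP plus TNF. Every ACHP library was above the other 6, and every TNF library was below every PBS library. TNF against PBS gave -0.11 (SE 0.047) and was not called (edgeR adjusted p = 0.207). Thbd was 32.6% higher with ACHP plus TNF than with TNF (log2 fold change 0.41, SE 0.046, adjusted p = 8.6e-06) and 23.0% higher than with PBS (0.30, SE 0.045, adjusted p = 4.2e-04). Endothelial markers summed to 33.6 to 37.5 CPM in the ACHP libraries, 37.4 to 43.2 CPM with TNF and 38.5 to 43.5 CPM with PBS. Single markers differed. Emcn stood at 5.5, 7.1 and 7.0 CPM with ACHP plus TNF against 9.9, 8.4 and 8.7 CPM with TNF. Cdh5 stood at 7.1, 8.2 and 9.1 CPM against 7.5, 7.4 and 8.6 CPM. The part of endothelial cells in the Thbd values was not tested. With the term for the 5 libraries, the values were 0.28 (adjusted p = 0.115) and 0.22 (adjusted p = 0.132). The value against PBS was 0.21 (adjusted p = 0.154) with the neuron covariate and 0.22 (adjusted p = 0.0944) with PBS replicate 1 alone for PBS.

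**Figure D3:**
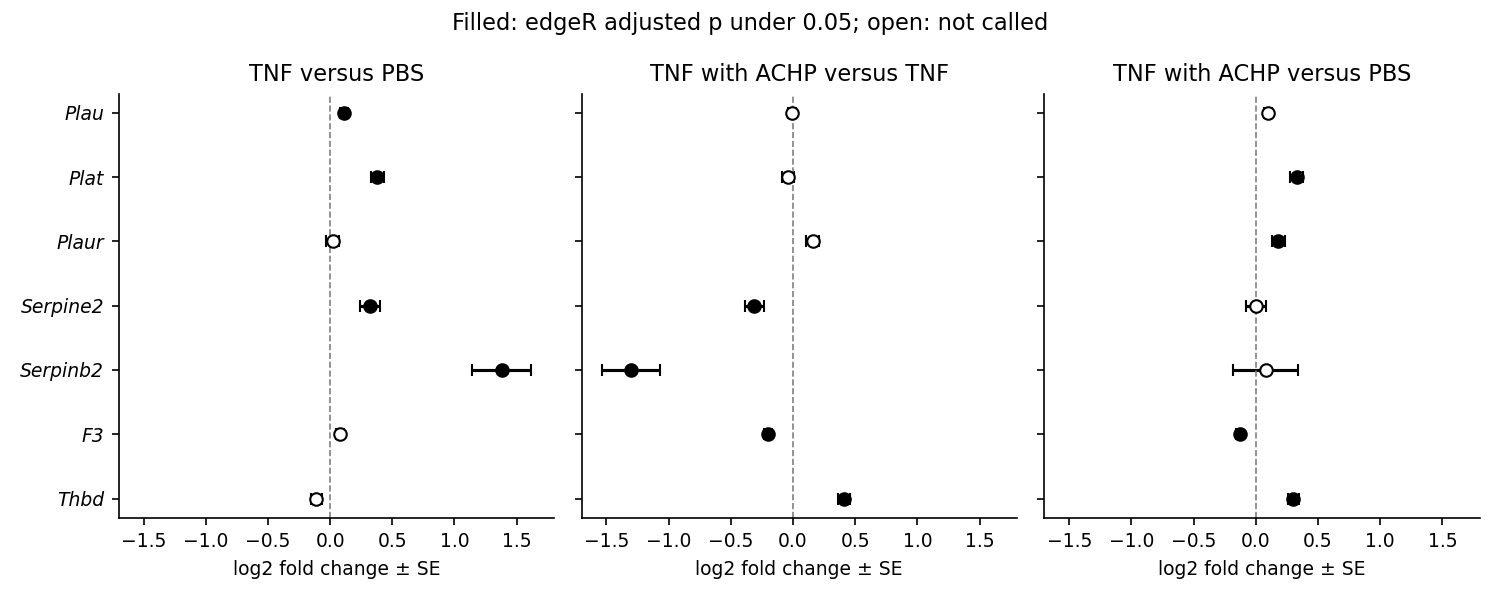
Log2 fold change ± SE of the 7 genes in the 3 comparisons, on a common axis, with filled points for an edgeR adjusted p under 0.05 over all 14747 genes and open points for those not called. Serpinb2 stands at 1.38 with TNF and at -1.30 with ACHP plus TNF against TNF, and every other value lies between -0.31 and 0.41.

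The balance between paired genes was read as a ratio of CPM per kb within each library. The size of a ratio rests on the merged exon lengths, and its log2 difference between groups does not. With 3 libraries against 3, the smallest p that the exact two-sided permutation test can give is 0.1, and none of the 9 tests, at 0.15 or more after Benjamini-Hochberg adjustment, could pass. F3 over Thbd, the clotting initiator over the anticoagulant receptor, read 19.6, 21.6 and 21.4 in the PBS libraries. It read 23.0, 23.9 and 24.3 in the TNF libraries and 15.3, 15.3 and 16.1 in those with ACHP plus TNF. No pair of groups overlapped, and the log2 differences were 0.19 for TNF against PBS, -0.61 for ACHP plus TNF against TNF and -0.42 against PBS (each exact permutation p = 0.1). Plau over Plat was 71.8 ± 4.88 with PBS, 59.7 ± 0.98 with TNF and 60.9 ± 1.24 with ACHP plus TNF, and the PBS libraries were above all others. Plau over Plaur was 38.2 ± 3.86, 40.5 ± 1.26 and 35.9 ± 0.82, and the ACHP libraries were below the TNF libraries but within the PBS range.

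**Figure D4:**
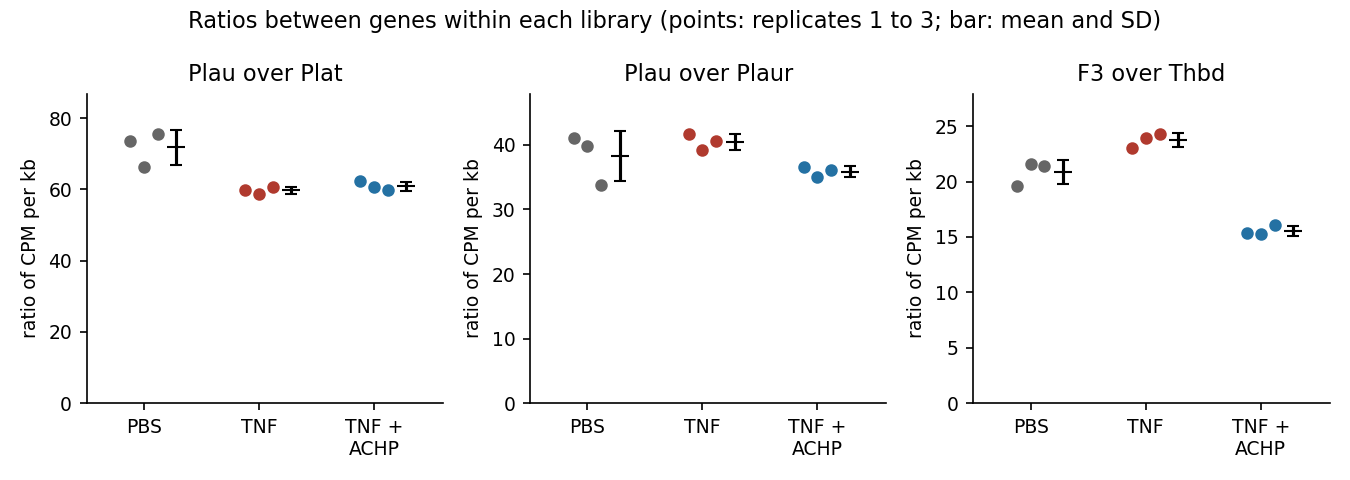
Ratios of CPM per kb between 2 genes within each library (points, replicates 1 to 3 from left, with mean and SD over 3 libraries), on axes that start at 0. F3 over Thbd separates all 3 groups, with means of 20.9, 23.8 and 15.6 for PBS, TNF and TNF plus ACHP.

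Around these genes, 87 genes in 7 lists were examined, of which 48 were tested. Each gene counted once, 7 rose and 4 fell with TNF (median log2 fold change 0.01), 4 rose and 11 fell with ACHP plus TNF against TNF (-0.07), and 6 rose and 7 fell against PBS (-0.11), where the 7 genes above are included. Over all genes tested, 6.22%, 7.17% and 6.04% were called in these comparisons. The lists, too, were chosen with earlier results of these data known. Of 10 activators and plasminogen, 6 were tested, and besides Plau and Plat only Hpn, which encodes the surface protease hepsin, changed: it fell with TNF (-0.31, SE 0.085, edgeR adjusted p = 0.0365), with a list median of -0.02. Leaving out PBS replicate 2 or 3 or TNF replicate 1 or 3, DESeq2, or PBS replicate 1 as the only PBS library ended that call, within -0.38 to -0.14.

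Of 12 inhibitors examined, 7 were tested, and 2 rose with TNF, Serpine2 and Serpinb2, with a median of 0.12 over the 7. The same 2 genes fell with ACHP plus TNF against TNF, with a median of -0.31, and against PBS the 7 had a median of 0.00. The other 5, which were not called in any of the 3 comparisons, are Serpini1, the neuroserpin that inhibits tissue plasminogen activator, Serping1, the inhibitor of complement C1, Serpina10, and the Kunitz-type inhibitors Spint1 and Spint2. Spint2 had log2 fold changes of 0.12 (SE 0.037), -0.09 (SE 0.037) and 0.03 (SE 0.037) in the 3 comparisons, and Spint1 had -0.10 (SE 0.042), 0.10 (SE 0.042) and 0.00 (SE 0.041).

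Of 16 receptors and plasminogen-binding proteins, 14 were tested. With TNF, S100a10, the partner of annexin A2 in a plasminogen receptor, rose (0.19, SE 0.040, edgeR adjusted p = 0.00623), as did the integrin subunits Itgav (0.22, SE 0.042, adjusted p = 0.00227) and Itga5 (0.20, SE 0.045, adjusted p = 0.00987). Lrp1, an endocytic receptor that clears urokinase bound to its inhibitor, fell with TNF from 30.9 to 24.3 CPM (-0.34, SE 0.073, adjusted p = 0.0064), and with ACHP plus TNF it was below PBS at 21.1 CPM (-0.55, SE 0.074, adjusted p = 1.5e-04). Itgav (-0.19, adjusted p = 0.00641) and Itga5 (-0.24, adjusted p = 0.00217) fell with ACHP plus TNF against TNF, while Itga3, a partner of the urokinase receptor, rose from 1276 to 1554 CPM (0.28, SE 0.033, adjusted p = 1.3e-05). Itgam also fell there, on 18, 10 and 6 counts with TNF and 3, 1 and 0 with ACHP, and 68.7% of its exon bases are shared with another gene. Its call ended in both neuron fits and without TNF replicate 1 or TNF plus ACHP replicate 2 or 3 (log2 fold change -4.33 to -2.52). Anxa2, at 0.01, 0.02 and 0.03, and Plgrkt, at -0.11, 0.01 and -0.10, were not called in the 3 comparisons. The list medians were -0.00, 0.02 and 0.01. Without TNF replicate 2, Lrp1 (-0.40 to -0.28 over all alternatives) and Itga5 (0.17 to 0.26) lost their TNF calls. S100a10 (0.17 to 0.21) lost its TNF call without TNF replicate 1 or 2 or with PBS replicate 1 as the only PBS library. Against TNF, both neuron fits ended the calls of Itgav (-0.25 to -0.13, also lost without TNF plus ACHP replicate 3) and Itga5 (-0.27 to -0.15). The term for the 5 libraries ended that of Itga3 against TNF (0.25 to 0.31). With ACHP plus TNF, Itga3 was also above PBS (0.23, SE 0.033, edgeR adjusted p = 2.6e-04). The neuron covariate ended that call (0.20 to 0.26).

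Few clotting factors passed the filter on low counts: 4 of 17 were tested, and F3 was the only gene of the list called, with medians of -0.29, -0.12 and -0.26 in the 3 comparisons. Of 9 anticoagulants, 8 were tested. Procr, the protein C receptor that works beside thrombomodulin, had 13.4 CPM with PBS, 15.8 CPM with TNF and 11.8 CPM with ACHP plus TNF, and fell with ACHP against TNF (-0.43, SE 0.092, edgeR adjusted p = 0.00651) where Thbd rose. Tfpi2, a matrix-bound protease inhibitor, fell there too (-0.87, SE 0.214, adjusted p = 0.0158), and Pros1, which encodes the cofactor protein S, was lower with ACHP plus TNF than with PBS (-0.24, adjusted p = 0.0278). The medians of the 8 were 0.13, -0.28 and -0.16, so Thbd went against the median of its list in the ACHP comparisons. Procr (-0.52 to -0.36 over all alternatives) lost its call without TNF plus ACHP replicate 2, Tfpi2 (-1.08 to -0.66) without TNF replicate 1 or 2 or TNF plus ACHP replicate 3, and both in the neuron fits. The call of Pros1 (-0.28 to -0.13) ended in 7 of 19 alternatives, both neuron fits among them. Of the protease-activated receptors, 3 of 4 were tested: F2r, the thrombin receptor, fell with TNF (-0.18, SE 0.038, adjusted p = 0.00649) and rose with ACHP plus TNF against TNF (0.25, SE 0.038, adjusted p = 3.4e-04), and F2rl1 rose in the latter (0.15, adjusted p = 0.0216). F2r lost its TNF call (-0.20 to -0.15) without TNF replicate 2 or with PBS replicate 1 as the only PBS library, and its ACHP call (0.22 to 0.28) with the term for the 5 libraries. F2rl1 (0.10 to 0.16) lost its call against TNF in both neuron fits and without TNF replicate 2 or 3 or TNF plus ACHP replicate 2. With ACHP plus TNF, F2rl1 was also above PBS (0.16, SE 0.038, edgeR adjusted p = 0.0136), where F2r was not called (0.07, SE 0.038). That call of F2rl1 (0.11 to 0.18) ended in 5 of 19 alternatives, both neuron fits among them.

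**Figure D5:**
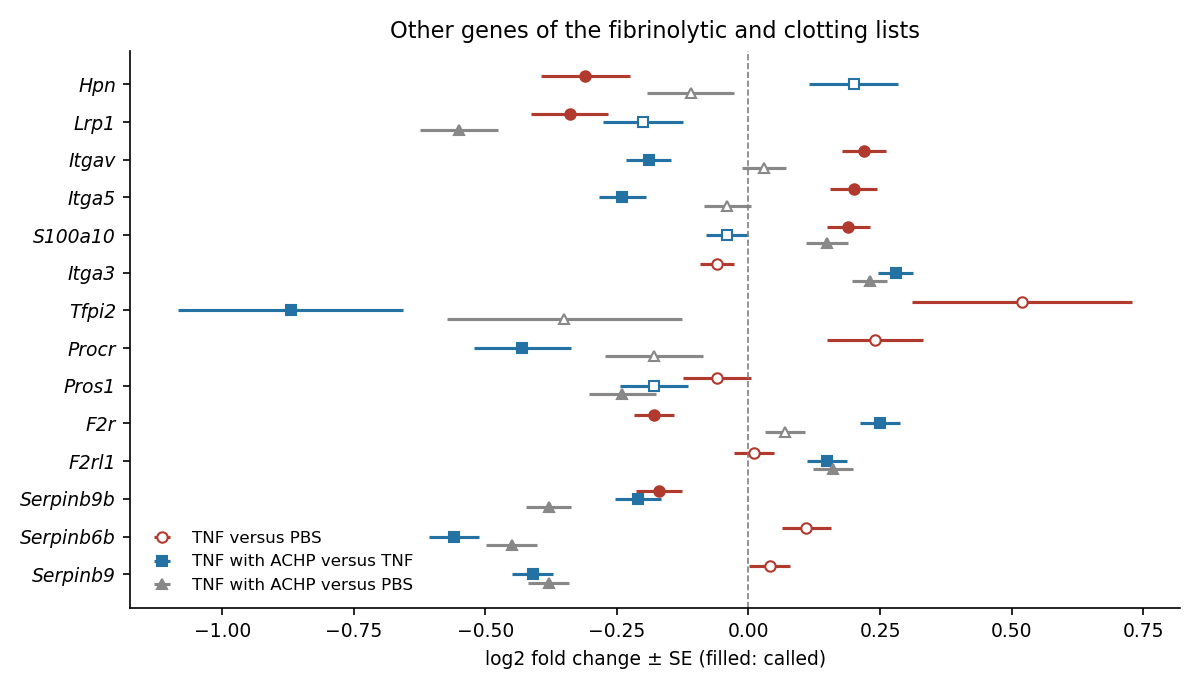
Log2 fold change ± SE of the other named genes of the fibrinolytic, clotting and clade B serpin lists in the 3 comparisons (circles, squares and triangles), with filled symbols for those called. Itgav and Itga5 stand above 0 with TNF and below 0 for TNF plus ACHP against TNF, F2r stands the other way, and Lrp1 lies below 0 in all 3.

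For each of the 7 genes, 3 or 4 of the 4 genes with the most similar values over the 9 libraries are named, from 10170 candidates with at least 5 CPM on average, by the root mean square difference of centred log2 CPM. The measure uses the same libraries as the tests and describes likeness only. Nearest to Serpinb2 were Ccl20 (difference 0.291), Nfkbie (0.305), Cxcl10 (0.305) and Tnfaip3 (0.309), against a spread of Serpinb2 about its own mean of 0.661. Nearest to Serpine2 were Tapbpl, Tapbp, Cd47 and Akr1b3 at 0.041 to 0.061, and nearest to Plat were Dtx4, Cd14, Wdr55 and Cish at 0.052 to 0.071. Plau was closest to Sqstm1 (0.016), Hsp90ab1, Map7d1 and Rps26, and Plaur to Rplp0 (0.027), Ttc7b, Tubb5 and Rps2. Nearest to Thbd were Scd2, Akap12 and Thap7 at 0.056 to 0.071, and nearest to F3 were Epb41l1, Endod1 and Ptgfrn at 0.024 to 0.033. The neighbours of Serpinb2 had log2 fold changes of 0.95 to 1.71 with TNF, and those of Thbd had 0.30 to 0.35 with ACHP plus TNF against TNF.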

How the data were processed

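Total RNA was sequenced from 9 libraries in 3 groups of 3, with groups and replicate numbers from the sample titles. The deposited values are raw counts per Ensembl gene, made per the file headers with featureCounts 2.0.1 on Ensembl 109 for GRCm39. The submitters' processing notes name STAR, featureCounts, DESeq2 and mm10. The intervals of 6 of the 7 genes do not overlap their GRCm38 positions and are given on GRCm39, and reads that overlap several genes are not counted at the defaults the header shows. Symbols were matched for 52029 of 57010 identifiers, which hold 99.6% of the counts. The members and lists were chosen with earlier results of these data known.

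Tests used edgeR 4.0.16 (R 4.3.3): filterByExpr, TMM factors (0.993 to 1.01), a quasi-likelihood fit with a mean per group over all 9 libraries (coefficient of variation 4.01%), and Benjamini-Hochberg adjustment over 14747 genes, with calls at adjusted p under 0.05. SEs were derived from the F statistic. The code was tested on simulated data. No 2 libraries of a group agreed within sampling noise. Alternatives were DESeq2 1.42.0, RLE factors, total counts alone, no filter and a stricter filter, 6 libraries alone, a replicate block, neuron transcripts as a covariate or a term, leaving out each library and, chosen after seeing the data, PBS replicate 1 as the only PBS library.

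Named besides the 7 genes are, per list and comparison, the called genes of largest change (up to 4) whose higher group had a mean of 5 CPM or more. Some genes are not reported here. Itgam, Serpinb5, Anxa2, Plgrkt and the 5 inhibitors that were not called fall outside that rule and were chosen after their values were seen. For each of the 7, the 4 genes nearest in centred log2 CPM (prior count 2) are named, leaving out predicted genes.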

Additional observations from a re-analysis of the deposited data

How the results depend on the processing

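For the 7 genes, 392 values under alternatives were compared with those reported: 332 kept direction and side of the threshold, 44 lost a call, 6 gained one and 10 changed sign. The sign changes were of values near 0 that were not called: Plaur for TNF against PBS gave -0.02 with the term for the 5 libraries with most neuron transcripts, -0.02 without PBS replicate 1 and -0.01 without PBS replicate 2 (-0.02 to 0.10 over libraries left out), and Serpinb2 for ACHP plus TNF against PBS gave -0.13 without PBS replicate 3 and -0.00 without TNF plus ACHP replicate 1 (-0.13 to 0.31). Serpine2 for ACHP plus TNF against PBS gave -0.01 with total counts alone, -0.00 in the 6 libraries alone, -0.07 without PBS replicate 1 and -0.03 without TNF plus ACHP replicate 2 (-0.07 to 0.04), and Plau for ACHP plus TNF against TNF gave 0.00 without TNF plus ACHP replicate 2 (-0.04 to 0.00). The cause was not tested.

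Leaving out each library, the number of the 7 genes called was 2 to 4 for TNF against PBS (2 without TNF replicate 1 or 2), 3 to 5 for ACHP plus TNF against TNF and 3 to 4 against PBS. Over all genes, leaving out a library gave 468 to 957, 541 to 1327 and 494 to 988 calls against 917, 1058 and 891. The lowest of these were 468, 499 and 597 without TNF replicates 1, 2 and 3 in the first comparison, 603 and 541 without TNF replicates 1 and 2 and 590 and 643 without TNF plus ACHP replicates 2 and 3 in the second, and 511 without PBS replicate 2 and 494 without TNF plus ACHP replicate 3 in the third. With neuron CPM as a covariate, 2 of the 7 genes and 302 genes in all were called for ACHP plus TNF against TNF, and 1 and 128 against PBS. With the term for the 5 libraries, edgeR called 0 of the 7 for ACHP plus TNF against TNF (4 at an unadjusted p under 0.05, and 3 by DESeq2 without the term) and 143 genes, and 1 and 162 against PBS. That term is set by PBS replicate 1 against PBS replicates 2 and 3, since it is the same for all libraries of the other groups. With PBS replicate 1 as the only PBS library, an alternative chosen after seeing the data in which the spread comes from the other groups alone, calls over all genes were 418 for TNF and 237 for ACHP plus TNF, with 2 of the 7 in the latter. At an adjusted p under 0.01 the counts were 442, 468 and 427 genes, with 2 of the 7 for TNF and 2 for ACHP plus TNF against PBS. With a log2 fold change of at least 0.5 in size required they were 171, 357 and 345 genes, with 1, 1 and 0 of the 7. The 6 libraries alone gave 493 genes for ACHP plus TNF against PBS.

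Same-numbered libraries correlated between -0.10 and 0.17 in their deviations from the group means, so the numbers were not taken to pair the libraries. A replicate block gave 945, 1175 and 988 genes and 4, 4 and 4 of the 7, with all 21 values of the 7 genes on the same side. Of 27 calls for the other named genes, 7 held in every alternative and 0 changed sign. Depth limits Serpinb2 most, at 25 to 102 counts per library.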

Other observations

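Serpinb2 belongs to the clade B serpins, of which 7 of 22 listed genes were tested. Serpinb9, which encodes an inhibitor of granzyme B, had 250 CPM with PBS, 256 CPM with TNF and 193 CPM with ACHP plus TNF. It was lower with ACHP plus TNF than with TNF (log2 fold change -0.41, SE 0.039, edgeR adjusted p = 1.0e-06) and than with PBS (-0.38, SE 0.039, adjusted p = 1.1e-05). Serpinb6b fell from 133 to 89.9 CPM against TNF (-0.56, SE 0.048, adjusted p = 2.3e-07) and was below its PBS level of 123 CPM (-0.45, adjusted p = 1.3e-05). Serpinb9b was lower with TNF than with PBS (-0.17, SE 0.043, adjusted p = 0.0187) and lower again with ACHP plus TNF (-0.21 against TNF, adjusted p = 0.00491, and -0.38 against PBS, adjusted p = 1.9e-05). Serpinb5 was lower with ACHP plus TNF than with PBS (-0.73, SE 0.208, adjusted p = 0.0413), a call that ended in 10 of 19 alternatives, DESeq2 and both fits with neuron transcripts among them (-0.88 to -0.56), and without PBS replicate 1 or 2, TNF replicate 1 or TNF plus ACHP replicate 1 or 2. Serpinb9 and Serpinb6b kept both calls in every alternative run, while Serpinb9b lost its TNF call without PBS replicate 3, without any TNF replicate and with PBS replicate 1 alone for PBS (-0.20 to -0.14). Both fits with neuron transcripts ended the call of Serpinb9b against TNF (-0.24 to -0.18). The medians of the 7 tested were 0.04, -0.41 and -0.38 in the 3 comparisons, with Serpinb2 among them.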
